A study of Homo sapiens with 4 samples.

Results

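The BAF complex (mammalian SWI/SNF) is a chromatin remodeller, and 10 of its subunit genes were examined among the 24014 genes of a table of RNA-seq counts made from SK-N-SH, a neuroblastoma line of human origin. The genes were the rows whose symbol was SMARCA4, SMARCA2, SMARCB1, SMARCC1, SMARCC2, ARID1A, ARID1B, ARID2, ACTL6A or ACTL6B, and all 10 were found. The control group (2 libraries, labelled wild type) had received a lentiviral vector with no insert. The AP1AR-DT_OE group (2 libraries) had received one that carried AP1AR-DT, a long non-coding RNA cloned as its full-length cDNA in a pCDH vector. All 4 libraries thus share the line and the transduction, and whether the cells were a clone or a pool is not stated. The labels do not say whether the libraries of a group came from separate cultures, so the p-values measure the spread between these libraries, which may be technical.

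BAF complexes use the energy of ATP to slide or evict nucleosomes, and so open promoters and enhancers to transcription factors. Each complex is built around 1 ATPase with a core of scaffold subunits, and the ARID subunit sets canonical BAF apart from PBAF. Canonical BAF carries ARID1A or ARID1B, whereas PBAF carries ARID2. When neural progenitors leave the cell cycle, the complex exchanges subunits: the actin-like ACTL6A gives way to ACTL6B, PHF10 to DPF1 or DPF3, and SS18 to SS18L1. The comparison asked whether the level of these subunits, or the balance between progenitor and neuronal forms, differed when AP1AR-DT was raised.

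AP1AR-DT itself, the check of the labels, had 3 and 18 counts in control and 680 and 1065 in AP1AR-DT_OE. The libraries held between 21988065 and 26184599 counts, of which about 4 were taken as 1 pair of reads, an inference from the low counts. A count of 0 allows up to 3 pairs, or 12 counts, and this floor covers counting error only. Of 10 listed adrenergic markers of neuroblastoma 9 were analysed, and TH was not analysed here. The 9 were present in every library. Their summed normalized read count (count divided by the library's size factor) was between 23100 and 27040. None of the 9 passed the test between the groups (unadjusted p of 0.591 or more, DESeq2 Wald test). The 6 mesenchymal markers summed to between 107300 and 135300. Among them PRRX1 was at 11360 normalized counts in control 2 and 2770 in control 1, above 1241 and 2246 in AP1AR-DT_OE, a Log2FC of -2.02 (unadjusted p = 0.00099, adjusted p = 0.383). The groups did not overlap for PRRX1, and its part in the values of the BAF genes was not tested. The other 5 mesenchymal markers had an unadjusted p of 0.471 or more. The 4 analysed markers of other cell types summed to between 31.8 and 58.1. GFAP was the highest, with 44 and 32 counts in control and 30 and 8 in AP1AR-DT_OE, above the floor in 3 libraries. EPCAM and MBP were each above the floor in 1 library. The B cell marker CD79A was at 0 in both AP1AR-DT_OE libraries and in control 1. In such bulk samples, fewer cells of a type and less RNA per cell cannot be told apart.

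None of the 10 BAF genes was called between AP1AR-DT_OE and control at an adjusted p under 0.05, against 0.15% of all genes tested (36 of 24014). None reached an unadjusted p under 0.05 either, against 0.816% of all genes, and the edgeR quasi-likelihood test also gave 0 members at both thresholds. That test called 0 of all 17027 genes at the adjusted threshold and 0.658% at the unadjusted one, so its 0 adjusted calls say nothing of the members. The Log2FC was above 0 for 4 genes and below 0 for 6, with a median of -0.05, beside -0.03 over all genes. ARID2 was the only one of the 10 whose normalized counts did not overlap between the groups, where 13.7% of all genes did not overlap, and after GC correction its groups overlapped as well. The 95% intervals of the Log2FC reached from -1.19 (ARID1A) to 1.47 (ARID2) over the 9 genes other than ACTL6B. Each spanned 0, and a change within a gene's own interval is not excluded by these libraries.

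**Figure D1:**
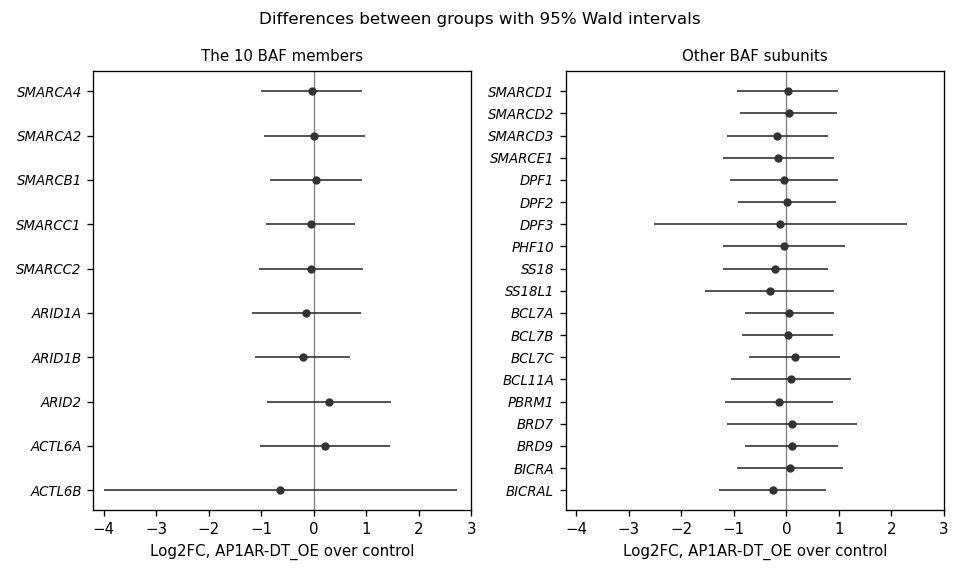
Log2FC of AP1AR-DT_OE over control (x axis, log2 scale) for the 10 BAF genes and 19 other BAF subunits, with points for the DESeq2 estimate and bars for its 95% Wald interval (2 libraries a group). Every interval spans 0, and the widest are those of ACTL6B, from -3.99 to 2.72, and DPF3, from -2.52 to 2.29.

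The first pair of genes encodes the ATPases that drive the complex, of which a complex holds one. SMARCA4 (BRG1; ENSG00000127616, chromosome 19, 10960932 to 11079426, GRCh38) was the most abundant of the 10. It had 6365 normalized counts in control 1, 3276 in control 2, 5497 in AP1AR-DT_OE 1 and 3859 in AP1AR-DT_OE 2. Both libraries numbered 1 were above both libraries numbered 2, and the groups overlapped. The mean was 4821 ± 2185 (SD, n = 2) in control against 4678 ± 1158 (SD, n = 2) in AP1AR-DT_OE, a Log2FC of -0.04 (SE = 0.49, adjusted p = 1).

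SMARCA2 (BRM; ENSG00000080503, chromosome 9, 1980290 to 2193624) is the alternative ATPase. It had 339 normalized counts in control 1, 338 in control 2, 319 in AP1AR-DT_OE 1 and 362 in AP1AR-DT_OE 2. The 4 libraries lay close together, with control between the AP1AR-DT_OE values. The Log2FC was 0.01 (SE = 0.49, 95% interval -0.95 to 0.97, adjusted p = 1). Per kb of the longest transcript, SMARCA4 exceeded SMARCA2 by 22.9-fold in control 1, 11.9-fold in control 2, 21.1-fold in AP1AR-DT_OE 1 and 13.0-fold in AP1AR-DT_OE 2. SMARCA2 has several start sites in RefSeq, and a count per gene does not separate the RNAs that begin at them.

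SMARCB1, SMARCC1 and SMARCC2 form the core on which the complex is assembled. SMARCB1 (ENSG00000099956, chromosome 22, 23786931 to 23838009), which contacts the nucleosome and is lost in rhabdoid tumours, had 2635 and 1845 normalized counts in control and 2521 and 2080 in AP1AR-DT_OE. The AP1AR-DT_OE values lay inside the range of the controls. Its Log2FC was 0.04 (SE = 0.45, adjusted p = 1).

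SMARCC1 (BAF155; ENSG00000173473, chromosome 3, 47585269 to 47782106) was the steadiest of the abundant members, at 2024 and 2217 normalized counts in control and 2069 and 1990 in AP1AR-DT_OE. Its Log2FC was -0.06 (SE = 0.43, 95% interval -0.90 to 0.78, adjusted p = 1). Its paralog SMARCC2 (BAF170; ENSG00000139613, chromosome 12, 56162359 to 56189567) had 3236 and 1563 in control and 2766 and 1855 in AP1AR-DT_OE. Libraries numbered 1 were again above those numbered 2 in both groups. The Log2FC of SMARCC2 was -0.05 (SE = 0.51, adjusted p = 1). Exons of SMARCC2 overlap those of MYL6 on the opposite strand and of ENSG00000258199 on the same strand, and whether counting used strand is not stated, so its level is uncertain. The same holds for SMARCA2, SMARCB1, ARID1A, ARID1B and ACTL6A, whose exons overlap a gene on the opposite strand (for example DERL3 at SMARCB1 and MRPL47 at ACTL6A).

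The ARID subunits bind DNA and set canonical BAF apart from PBAF. ARID1A (ENSG00000117713, chromosome 1, 26693236 to 26782104), a subunit of canonical BAF often mutated in tumours, had 5573 normalized counts in control 1, 2530 in control 2, 4803 in AP1AR-DT_OE 1 and 2522 in AP1AR-DT_OE 2. The difference between libraries of a group was larger than that between groups: the log2 ratio of replicate 2 over 1 was -1.14 in control and -0.93 in AP1AR-DT_OE, and the Log2FC between groups was -0.15 (SE = 0.53, adjusted p = 1). ARID1B (ENSG00000049618, chromosome 6, 156776020 to 157210779), its paralog, had 1723 and 1138 in control and 1301 and 1159 in AP1AR-DT_OE. The control values enclosed those of AP1AR-DT_OE, with a Log2FC of -0.22 (SE = 0.46, adjusted p = 1).

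ARID2 (ENSG00000189079, chromosome 12, 45729706 to 45908040), the ARID subunit of PBAF, was much lower, at 121 and 94.9 normalized counts in control and 137 and 126 in AP1AR-DT_OE. Both AP1AR-DT_OE values were above both controls. After GC correction they were not, at 168 and 64.9 against 176 and 103. The means before correction were 108 ± 18.3 (SD, n = 2) and 132 ± 7.82 (SD, n = 2), a Log2FC of 0.29 (SE = 0.60, 95% interval -0.90 to 1.47, unadjusted p = 0.632, adjusted p = 1). Leaving out each library in turn gave it a Log2FC between 0.13 and 0.47. Per kb, ARID1A exceeded ARID2 by between 20.0-fold (AP1AR-DT_OE 2) and 46.2-fold (control 1).

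The actin-like subunits are the best known markers of the progenitor to neuron exchange. ACTL6A (BAF53A; ENSG00000136518, chromosome 3, 179562886 to 179588407), the form of dividing cells, had 116 normalized counts in control 1, 322 in control 2, 178 in AP1AR-DT_OE 1 and 330 in AP1AR-DT_OE 2. Here the libraries numbered 2 were the higher ones, the opposite of SMARCA4, SMARCC2 and ARID1A. The means were 219 ± 146 (SD, n = 2) and 254 ± 108 (SD, n = 2). The Log2FC was 0.21 (SE = 0.63, adjusted p = 1), and within the replicate numbers the ratio on the log2 scale was 0.61 (number 1) and 0.04 (number 2).

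ACTL6B (BAF53B; ENSG00000077080, chromosome 7, 100643097 to 100656448), the neuronal form, stood near the floor. Its raw counts were 13 and 19 in control and 0 and 19 in AP1AR-DT_OE, that is, only a few read pairs where it was seen. Only 3 libraries exceeded 12 counts. The fitted Log2FC of -0.64 (SE = 1.71, adjusted p = 1) rests on the 0 in AP1AR-DT_OE 1 and is no bound. Without AP1AR-DT_OE replicate 1 it was 0.35, and without AP1AR-DT_OE replicate 2 it was -6.20 (unadjusted p = 0.0417, adjusted p = 1). The controls stood near the floor, so a fall in ACTL6B was not detectable at this depth. A large rise from such counts could be called, as it was for AP1AR-DT with 3 and 18 counts in control. A smaller rise in ACTL6B is not excluded.

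Because ACTL6B is the lowest of the members, the 250 bases before its RefSeq start are shown (GRCh38.p14, chr7:100656449-100656698, minus strand, printed 5′ to 3′ along the gene). Capitals mark the CCAAT box, written CCAAT on one strand and ATTGG on the other.
ACTL6B: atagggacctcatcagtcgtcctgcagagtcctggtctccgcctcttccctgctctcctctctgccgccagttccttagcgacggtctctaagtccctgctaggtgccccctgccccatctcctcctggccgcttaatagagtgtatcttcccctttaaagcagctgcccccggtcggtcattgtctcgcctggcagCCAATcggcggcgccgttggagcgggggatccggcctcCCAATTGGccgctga
The window held 3 CCAAT boxes, of which the last pair overlap on opposite strands, and no GC box (GGGCGG or its reverse complement CCGCCC). Of 35116 RefSeq promoters of the same length, 32% held a CCAAT box and 42.6% a GC box on either strand. Promoters were listed for 6 of the 10 genes, and SMARCA4, SMARCA2, ARID1A and ARID1B had a window with a GC box. The NRF1 core GCGCATGC was searched on both strands because the study examined that factor together with AP1AR-DT. This exact spelling was in no window of the 6 genes and in 2.63% of all promoters. The motifs that the paper predicted for NRF1 at NEGR1 are spelled otherwise. Such forms were not searched, so the windows may hold them. The letters searched in a window are a description and not a site.

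**Figure D2:**
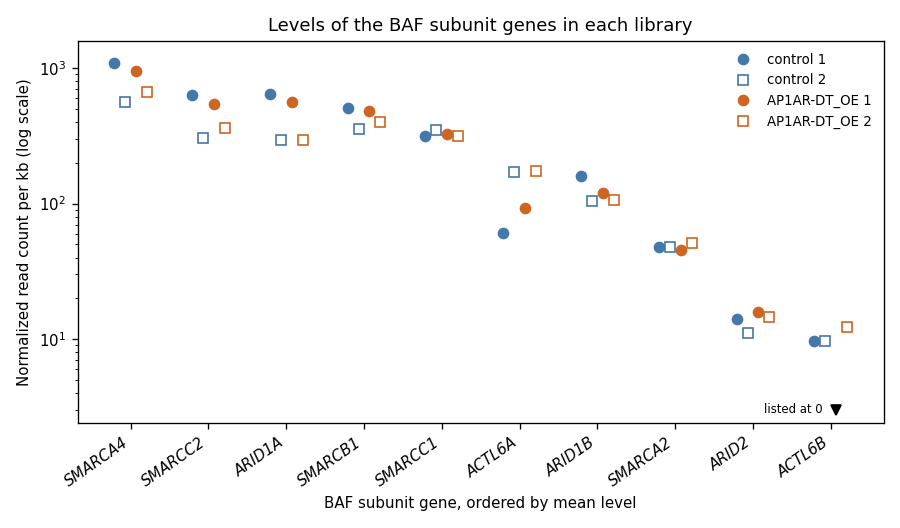
Normalized read count per kb of the longest transcript (y axis, log scale) of the 10 BAF genes in each library, with circles for replicate 1 and squares for replicate 2, blue for control and orange for AP1AR-DT_OE. The black triangle is ACTL6B in AP1AR-DT_OE 1, listed at 0, and levels run from SMARCA4, between 567 and 1102, down to ACTL6B, between 0 and 12.4.

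Levels of different genes were compared per kb of the longest annotated transcript, whether coding or not. The order rests on that length, which was 5191 nt for SMARCB1 and 5777 nt for SMARCA4. No shorter transcript was tried as the length. SMARCA4 led with 822 ± 248 (SD over the 4 libraries) normalized counts per kb, and 90.4% of the 23954 genes with a length were below it. SMARCC2 followed at 463 ± 153, ARID1A at 449 ± 183 and SMARCB1 at 437 ± 71.5. The ranges of neighbours among these 4 overlapped, although SMARCA4 was above SMARCC2 in 4 of 4 libraries. SMARCC1, at 327 ± 15.7, lay below SMARCB1 in every library without overlap. ACTL6A, at 125 ± 56.2, and ARID1B, at 123 ± 25.1, did not differ beyond their spread, and each was higher in 2 libraries. SMARCA2, at 48.1 ± 2.50, ARID2, at 13.9 ± 2.08, and ACTL6B, at 7.93 ± 5.44, closed the order. The ranges of ARID2 and ACTL6B overlapped, and 32.8% of genes were below ACTL6B. With the summed exons as length, SMARCC1 moved from rank 5 to rank 2 and the places from ACTL6A downwards were kept.

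The balance between alternative subunits was read as a share of their summed level per kb within a library, which does not depend on library size. For each of the 6 shares the groups overlapped. The exact two-sided permutation test over 2 against 2 libraries cannot give a p below 0.333, and it gave 0.667 for the ACTL6B share and 1 for the other 5. ACTL6B made up 13.7% of ACTL6A plus ACTL6B in control 1 (exact Clopper-Pearson 95% interval 2.71% to 31.9%, 29 read pairs) and 5.36% in control 2 (1.87% to 12.6%, 109 pairs). It made up 0% in AP1AR-DT_OE 1, where 0 of 40 pairs gave an exact upper limit of 10.7% (9.18% by the floor of 3 pairs), and 6.64% in AP1AR-DT_OE 2 (2.32% to 15.4%, 88 pairs). ACTL6A, the progenitor form, was thus the main form in all 4 libraries, and the intervals overlap.

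SMARCA2 made up 4.18% of both ATPases in control 1 and 7.78% in control 2, and 4.54% in AP1AR-DT_OE 1 and 7.13% in AP1AR-DT_OE 2. The values grouped by replicate number and not by vector: the intervals of the number 1 libraries reached no higher than 5.69%, and those of the number 2 libraries started at 5.76%. SMARCC2 made up 66.6% and 46.8% of both scaffolds in control and 62.5% and 53.8% in AP1AR-DT_OE. ARID1B made up 19.7% and 26.3% of both canonical ARID subunits in control and 17.7% and 26.8% in AP1AR-DT_OE. In these 3 shares the libraries numbered 1 and numbered 2 did not overlap, while the group means differed by -0.15, 1.45 and -0.79 percentage points in the same order.

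The neuronal and progenitor forms outside the 10 genes were read in the same way. SS18L1 (CREST), the neuronal partner of SS18, made up 14.1% and 20.2% in control and 19.0% and 15.7% in AP1AR-DT_OE, 17.1% ± 4.31 against 17.3% ± 2.33 (SD, n = 2). DPF1 plus DPF3, the neuronal alternatives to PHF10, made up 82.3% and 50.9% in control and 69.9% and 63.9% in AP1AR-DT_OE, 66.6% ± 22.2 against 66.9% ± 4.27 (SD, n = 2). Nearly all of this came from DPF1, at between 235 and 399 normalized counts, while DPF3 was between 13.7 and 20.1. As for SMARCC2, the libraries numbered 2 were lower than those numbered 1. Which form led depended on the length correction: by normalized counts PHF10 was above DPF1 in both libraries numbered 2, at 430 against 235 in control and 318 against 298 in AP1AR-DT_OE. DPF2, another subunit of the list, was not part of the share of DPF1 plus DPF3. Per kb it stood at 391 in control and 395 in AP1AR-DT_OE. DPF1 stood at 134 and 130, and PHF10 at 67.2 and 65.1. The share therefore describes PHF10, DPF1 and DPF3 only. Exons of PHF10 overlap those of ENSG00000232640 on the same strand and C6orf120 on the opposite strand, so its level is uncertain. Exons of SMARCD3, PBRM1, BCL7C, SMARCA5, CHD4 and REST, named below, also overlap other genes on the opposite strand. ACTL6A and SS18, the progenitor forms, were above ACTL6B and SS18L1 in all 4 libraries by normalized counts and per kb.

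**Figure D3:**
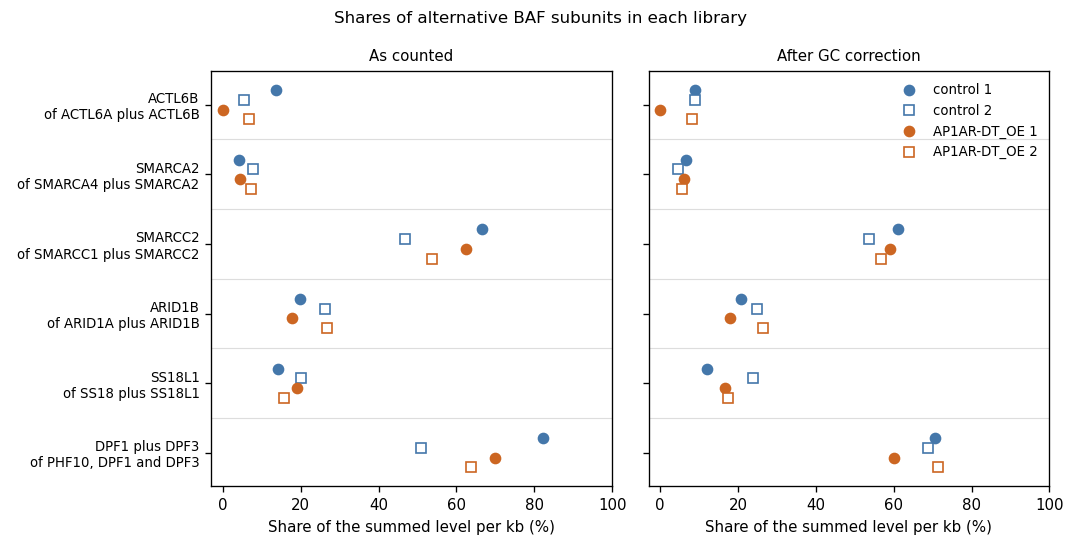
Share of the summed level per kb (x axis, percent) taken by the first-named subunit in each library, as counted (left) and after GC correction (right), with blue for control, orange for AP1AR-DT_OE, circles for replicate 1 and squares for replicate 2. As counted, SMARCC2 ranges from 46.8% to 66.6%, and after correction from 53.6% to 61.1%.

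Differences between the libraries of a group were larger than the difference between groups in 8 of the 9 members with a mean of at least 50 normalized counts and in 18 of 18 other subunits, beside 90.7% of all such genes, where the former is the mean absolute log2 ratio of replicate 2 over 1 in both groups and the latter the absolute Log2FC. Among these 9 members the median absolute Log2FC between groups was 0.06 and the median absolute log2 ratio between replicates was 0.40. Over all 13220 such genes these were 0.12 and 0.58. In 6 of the 9 members the libraries of 1 number did not overlap those of the other, with number 2 lower in 5 and higher in 1, where 80.8% of all such genes did not overlap. The log2 ratio of replicate 2 over 1 was lower for BAF genes of higher transcript GC content, over 27 genes (Pearson's r = -0.68 and Spearman's rho = -0.70 in control, r = -0.55 and rho = -0.51 in AP1AR-DT_OE). The same relation was present over all 13206 genes with a GC value (r = -0.71 and rho = -0.77 in control, r = -0.55 and rho = -0.65 in AP1AR-DT_OE) and is not particular to BAF genes. These are correlations across genes that share 2 libraries each, given as a description. ACTL6A, with 43.2% GC, had log2 ratios of 1.47 and 0.90. SMARCA4, with 61.0% GC, had -0.96 and -0.51.

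**Figure D4:**
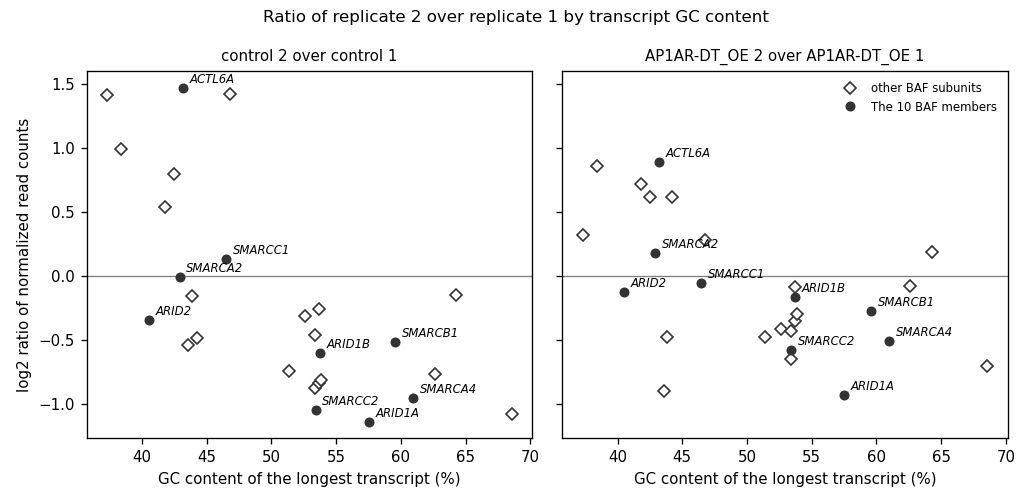
Log2 ratio of normalized read counts of replicate 2 over replicate 1 (y axis) against GC content of the longest transcript (x axis, percent) for 27 BAF genes, in control (left) and AP1AR-DT_OE (right). Filled circles are 9 of the 10 BAF genes and diamonds 18 other subunits, and ACTL6A lies highest of the 9 in both panels while ARID1A lies lowest.

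A GC correction brought some members closer between replicates and moved others apart. For SMARCA4 the log2 ratio of replicate 2 over 1 went to -0.21 in control and -0.18 in AP1AR-DT_OE. For SMARCA2 it went from -0.01 to -0.78 in control, and for ARID2 from -0.35 to -1.37. After the correction the SMARCA2 share was 6.66% and 4.58% in control and 6.10% and 5.70% in AP1AR-DT_OE, so the libraries numbered 2 turned from higher to lower. The ARID1B share kept its separation, at 20.7% and 25.0% in control and 18.0% and 26.5% in AP1AR-DT_OE. The ACTL6B share was 9.02%, 8.85% and 8.22% in the 3 libraries where it was seen. The part of GC content in the differences between replicates of single members was not tested.

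The other subunits of the complex were read as a whole list, of which 19 of 20 genes were analysed (BCL11B was not analysed here). None was called at an adjusted p or reached an unadjusted p under 0.05, 10 had a Log2FC above 0 and 9 below, and the median was 0.02. Their Log2FC ranged from -0.32 for SS18L1 to 0.16 for BCL7C, a small subunit of the complex. SMARCD2, one of the alternative BAF60 subunits that bridge to transcription factors, was among the most abundant BAF genes per kb, at 1568 in control and 1615 in AP1AR-DT_OE. SMARCD1 stood at 1022 and 1039 per kb, and SMARCD3, the form of muscle and neurons, at 337 and 299. SMARCE1, the HMG-box subunit, had 451 and 899 normalized counts in control and 431 and 785 in AP1AR-DT_OE, a Log2FC of -0.15 (SE = 0.54). PBRM1, the bromodomain subunit of PBAF, had 320 and 466 against 270 and 446, a Log2FC of -0.14 (SE = 0.52). Like ACTL6A, both were higher in the libraries numbered 2.

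PHF10 had 161 and 430 normalized counts in control and 254 and 318 in AP1AR-DT_OE, a Log2FC of -0.05 (SE = 0.59). SS18 had 520 and 907 against 487 and 746, a Log2FC of -0.21 (SE = 0.51). SS18L1 had 114 and 306 against 152 and 186, and its log2 ratio of AP1AR-DT_OE over control was 0.42 in number 1 and -0.72 in number 2. These opposite signs were the rule: in 3 of the 9 members and 5 of the 18 other subunits with a mean of at least 50 normalized counts the ratio had 1 sign in both numbers, as in 5060 of the 13220 genes.

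Genes outside the complex were read for comparison. Of 17 ATPases of other remodellers, none was called and none reached an unadjusted p under 0.05, with a median Log2FC of -0.04. SMARCA5, the ISWI ATPase, had a Log2FC of 0.12 (SE = 0.55), and CHD4, the ATPase of the NuRD complex, had 0.01 (SE = 0.44). REST, the repressor that keeps neuronal genes silent outside neurons, had 175 and 292 normalized counts in control and 134 and 236 in AP1AR-DT_OE, a Log2FC of -0.34 (SE = 0.58, adjusted p = 1). Its groups overlapped, and its log2 ratio within numbers, AP1AR-DT_OE over control, was -0.39 (number 1) and -0.31 (number 2). REST was the only one of 4 listed regulators of the subunit exchange with a Log2FC below 0. PTBP2, a splicing regulator of neurons named after its value was seen, had the largest difference of the 4, a Log2FC of 0.68 (SE = 0.91, unadjusted p = 0.454).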

How the data were processed

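RNA-seq libraries of SK-N-SH cells (2 control, 2 AP1AR-DT_OE) were grouped by their titles. For AP1AR-DT_OE 2 the title and 2 other labels differ in the number after the dot in the name of the RNA. The title was used, and AP1AR-DT had 1065 counts in this library. Per the paper's methods, the authors aligned reads with HISAT2 to hg19 and obtained a count per gene from StringTie. The tools named in the submitters' processing notes (TopHat2 2.0.4, HTSeq, Cuffdiff, edgeR 2.6.12) differ from these. The deposited counts are whole numbers without normalization. The table's own columns of fold changes, test statistics and p-values from the authors' DESeq2 and edgeR tests were not used. Its coordinates are GRCh38.

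Counts were compared with DESeq2 1.42.0 in R 4.3.3 (two-sided Wald test, no covariate, median-of-ratios size factors, Benjamini-Hochberg adjustment with default independent filtering, threshold 0.05). All 24014 genes were tested, and an adjusted p was given for 21347. The 4 counts per read pair were inferred from peaks among the low values, at 4 (3287 entries) and 8 (1342 entries). Counts of 1, 2 and 3 also occurred (1328, 1856 and 2136 entries), so the 4 is approximate. The numbers of read pairs, the floor and the intervals of the shares rest on it. Members, lists, tests and alternatives were chosen with earlier results of these data known. The text names the 10 members, AP1AR-DT, other subunits by role or extreme Log2FC, REST, SMARCA5, CHD4 and any listed BAF subunit or ATPase with an unadjusted p under 0.05. Markers were added for the check of the cell type. Lengths, GC content and overlaps came from GENCODE v44 on GRCh37, which matched 23954 genes, and promoters from RefSeq. The GC correction removed a lowess trend (span 0.3) of each library. Alternatives were edgeR 4.0.16, TMM factors, a filter of 10 counts in 2 libraries, no independent filtering, the replicate number as a term, GC correction, counts divided by 4, other lengths and leaving out each library. The fit was run on simulated counts that held no GC trend and no effect of replicate number, so the simulation cannot test either. PCR reads are not independent molecules, so intervals cover counting error only.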

Additional observations from a re-analysis of the deposited data

How the results depend on the processing

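No BAF member, other BAF subunit or other remodeller ATPase was called under any of the alternatives run, including each library left out (0 calls in each list). Over all genes the count of calls was 36, with 196 at an unadjusted p under 0.05. By edgeR's quasi-likelihood method these were 0 and 112. The calls numbered 15 after dividing counts by 4, 26 with the filter on low counts, 55 with GC correction and 60 with GC correction and the block, and were 91 without control replicate 1, 82 without control replicate 2, and 45 and 50 without AP1AR-DT_OE replicate 1 and 2. Directions near 0 changed: with TMM factors the Log2FC of SMARCA2 was -0.0036, and with GC correction that of SMARCB1 was -0.0017. The replicate numbers pair no shared source in the labels, although deviations of same-numbered libraries correlated (r = 0.41 over 16730 genes). With the replicate block 44 genes were called, and the Log2FC was 0.012 for SMARCA4 and 0.010 for SMARCC2. For ACTL6B the block gave -2.27, the block with GC correction -2.33 and the block in edgeR -1.34, against -0.64 without them, and none was called. With the block in edgeR the Log2FC was 0.0052 for SMARCA4, -0.00045 for SMARCA2 and 0.0034 for SMARCC2. The difference in share under GC correction was 0.28 points for SMARCA2, -0.88 for SS18L1 and -4.08 for DPF1 plus DPF3, which was -0.83 with summed exons and -1.55 without length. The cause was not tested.

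With each library left out in turn, the Log2FC ranged from -0.43 to 0.51 for SMARCA4, -0.097 to 0.092 for SMARCA2, -0.19 to 0.32 for SMARCB1, -0.13 to 0.014 for SMARCC1, -0.48 to 0.56 for SMARCC2, -0.69 to 0.54 for ARID1A, -0.48 to 0.11 for ARID1B, 0.13 to 0.47 for ARID2, -0.35 to 1.14 for ACTL6A and -6.20 to 0.35 for ACTL6B. The difference in share (AP1AR-DT_OE minus control, percentage points) ranged from -10.4 to -2.04 for ACTL6B, -1.95 to 1.65 for SMARCA2, -8.46 to 11.3 for SMARCC2, -5.32 to 3.73 for ARID1B, -2.83 to 3.26 for SS18L1, -15.4 to 16.0 for DPF1 plus DPF3. The lone library of a group was assumed to vary like the other group.

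Depth limits ACTL6B and DPF3, which had at most 26 counts in any library. With 2 libraries a group, the SE of the other BAF genes was 0.43 or more, and the smallest p of a share was above the threshold by design.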
